A study of Mus musculus with 16 samples.

Results

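The comparison described here set 4 arrays of Il4ra knockout cells given interleukin-4 (IL-4) against 4 arrays of wild-type cells given vehicle, 8 of the 16 arrays of the series, and covered all 25697 probes. The cells were cultured fibro/adipogenic progenitors (FAPs) from skeletal muscle of Balb/cJ mice. The knockout group carried the genotype IL4RA -/- and was treated with recombinant IL4, whereas the wild-type group had an intact receptor and was treated with vehicle. Each group had 4 arrays, described by the submitters as biological replicates, and the sources used here do not give the dose and time of IL-4. Genotype and treatment differ together between these groups. The comparison asks for the genotype effect a second time, with other knockout arrays, on the premise that neither side has IL-4 signalling. The 4 arrays of knockout cells given vehicle are set beside it, and they share the same wild-type arrays. Both knockout groups are numbered 1 to 4, and the sources used here do not say whether the same number means the same animal, so the knockout IL-4 arrays may not be independent of the knockout vehicle arrays.

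FAPs are mesenchymal cells of the muscle interstitium that support regeneration after injury and that can become fibroblasts or adipocytes. IL-4 binds the IL-4 receptor alpha chain, which pairs with the common gamma chain or with the IL-13 receptor alpha 1 chain, and the complex activates the transcription factor STAT6 through Janus kinases. A cell without the alpha chain lacks the known route for both IL-4 and IL-13 to STAT6. The suppressor of cytokine signalling Cish, the eosinophil chemokine Ccl11 and the decoy receptor Il13ra2 are established products of this pathway.

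The deposited values were read as log2. They had the same distribution on every array, from 7.72 to 14.77 and a median of 7.85. Fold changes hold under that reading. A floor compresses differences of dim genes, and 57.0% of the probes averaged within 0.15 of it. In a principal component analysis of the 8 arrays, component 1 (50.1% of the variance) ran from 5.54 to 7.66 in the knockout IL-4 group and from -7.82 to -5.18 in the wild-type vehicle group. Il4ra itself had no named probe, which leaves the genotype labels without a check by that gene. FAP markers were present: decorin (Dcn) averaged 12.17 and 11.75 in the knockout IL-4 and wild-type vehicle arrays, vimentin (Vim) 11.36 and 11.20, and the PDGF receptor alpha (Pdgfra) 10.87 and 10.17. Cd34 and Tcf21, which mark progenitors in tissue, lay near the array minimum in both groups, at 7.90 and 7.92 for Cd34 and at 7.82 and 7.80 for Tcf21.

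The premise about IL-4 was examined first, through the pathway products named above and carbonic anhydrase 4 (Car4). These genes were chosen with earlier results of these data known, so they are no independent evidence. Cish, a STAT5 and STAT6 target that damps cytokine signalling, read 8.74, 8.76, 8.73 and 8.80 in the knockout IL-4 arrays and 8.95, 8.93, 8.88 and 9.02 in the wild-type vehicle arrays. It was thus lower, not higher, in the cells given IL-4 (difference -0.19, 95% interval -0.26 to -0.12, limma adjusted p = 0.00498), and the groups did not overlap, although the call was lost under the trended variance model (adjusted p = 0.0557). The same probe read 11.04 to 11.09 in the 4 arrays of wild-type cells given IL-4. Those arrays are not in the contrast itself. They do enter the shared estimate of the spread and the choice of the probe that stands for a gene. Car4 read 7.83 to 7.86 in knockout cells given IL-4 and 7.78 to 7.82 in the wild-type vehicle group, against 11.95 to 12.26 in wild type given IL-4. Il13ra2 stayed at the floor on both sides, 7.88 to 7.89 and 7.83 to 7.85, against 9.55 to 9.70 in wild type given IL-4. Ccl11 read 11.08 to 11.22 in knockout cells given IL-4 and 10.58 to 11.05 in the wild-type vehicle group, a difference of 0.25 that did not pass (adjusted p = 0.193). In wild type given IL-4 it read 13.88 to 14.09. For each of these 4 genes knockout cells given IL-4 therefore lay far below wild-type cells given IL-4, and much nearer to wild-type vehicle cells. Cish still differed from the latter, and it was also lower in knockout cells given vehicle. There it read 8.73 to 8.88 (difference -0.16 from the wild type, limma adjusted p = 0.0142). Whether wild-type vehicle cells were free of IL-4 signalling was not tested.

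Knockout cells with and without IL-4 were then compared directly, since this is the difference between the 2 views of the genotype. No probe of 25697 passed at an adjusted p of 0.05 in limma (0%, smallest adjusted p = 0.288), while 1439 probes (5.6%) had an unadjusted p under 0.05. A variance model with trend and robust settings called 1 probe. The 95% interval of this difference had a median half-width of 0.04 over all probes, most of which lie near the floor. Intervals were wider for brighter genes such as Mmp3 (-0.17 to 0.17) and Ces1d (-0.33 to 0.17). These are limits on what the arrays could resolve, and a p that misses the threshold does not show that IL-4 was without effect in knockout cells.

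Between knockout cells given IL-4 and wild-type cells given vehicle, 901 probes for 795 named genes passed at an adjusted p of 0.05, 3.51% of all probes. Of these, 399 were higher in the knockout IL-4 arrays (1.55% of all probes) and 502 lower (1.95%). The changes were small: their median size was 0.24, 29 probes (21 higher, 8 lower) reached 1.5-fold and 6 (5 higher, 1 lower) reached 2-fold. The 4 arrays of each group did not overlap for 868 of the 901 probes. Over all probes tested the share without overlap was 10.1%, with 4.62% higher and 5.5% lower. The 3 largest rises were in Mmp3, Lbp and Cxcl14, and the 3 largest falls in Ces1d, Rtf2 and Art3. Genes named below for size were chosen among called probes without overlap, so their separate groups follow from that choice. Without knockout IL-4 replicate 3 the count fell to 583 probes.

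**Figure D1:**
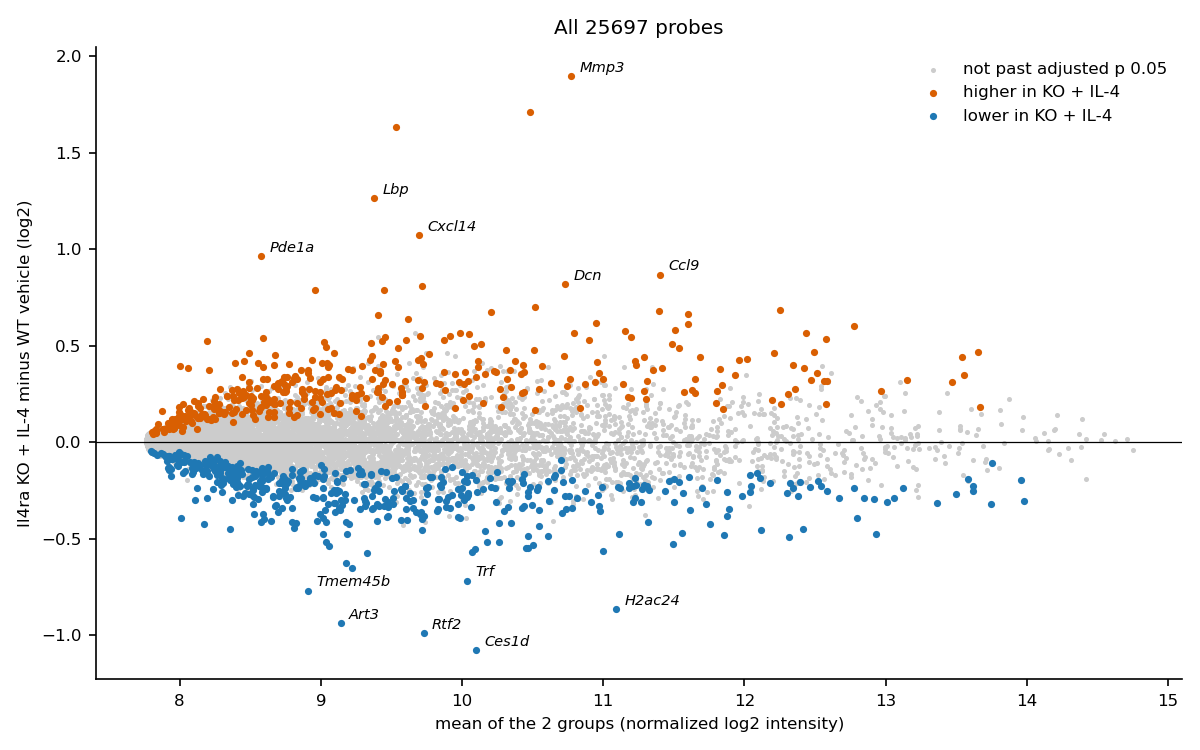
The difference between the knockout IL-4 and wild-type vehicle means (log2 scale) is plotted for every probe against the mean of both groups, with the 901 probes past an adjusted p of 0.05 in colour. Mmp3 lies farthest to the high side at 1.90 and Ces1d farthest to the low side at -1.08.

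The largest difference of all was in stromelysin-1 (Mmp3), a metalloproteinase that cleaves proteoglycans and basement membrane proteins and activates other proteases. Its level was 11.60, 11.72, 11.78 and 11.79 in the 4 knockout IL-4 arrays, and 9.68, 9.74, 10.09 and 9.78 in the 4 wild-type vehicle arrays. The groups were far apart, and wild-type replicate 3 was the highest of its group. The difference was 1.90 (95% interval 1.73 to 2.07), 3.73-fold, with a limma adjusted p of 2.17e-08, and all 3 probes of the gene passed, at 1.90, 1.71 and 1.63. Collagenase-3 (Mmp13), which cleaves fibrillar collagen, read 10.51, 10.45, 10.58 and 10.63 against 9.80, 9.86, 9.999 and 9.81. The knockout arrays again all lay above the wild type, by 0.68 (0.55 to 0.80, 1.6-fold, adjusted p = 1.67e-05), on 2 of 3 probes, the third being at the floor. In knockout cells given vehicle, measured against the same wild-type arrays, the differences were 1.90 for Mmp3 and 0.67 for Mmp13. The knockout vehicle arrays read 11.63 to 11.86 for Mmp3.

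Of the 22 measured genes in the list of metalloproteinases, their inhibitors and plasminogen activators, 7 rose and 0 fell, beside 1.8% of all genes higher and 2.46% lower (4.27% in all) when the brightest probe stood for a gene. The median difference of the list was 0.15, against 0.00 over all genes. Bright genes were called more often than dim ones. Among genes averaging over 1 above the array minimum, 5.64% were higher and 8.14% lower, and 5 of the 10 metalloproteinase genes of that brightness rose. Beside Mmp3 and Mmp13, the bright genes that rose were Mmp11 (stromelysin-3), by 0.48 (adjusted p = 0.0018), and the inhibitors Timp1, by 0.32 (adjusted p = 0.0287), and Timp3, by 0.22 (adjusted p = 0.0281). The groups overlapped for Timp3, and the calls of Timp1 and Timp3 were lost under 7 and 9 of 17 other settings. The dimmer rises were gelatinase B, Mmp9, by 0.46 (adjusted p = 0.00035), which averaged 8.72 against 8.26, and the aggrecanase Adamts4, by 0.28 (adjusted p = 0.008). The other 15 genes did not pass, among them Mmp2 (0.31, adjusted p = 0.067), Timp2 (0.15, adjusted p = 0.439) and Mmp14 (-0.12, adjusted p = 0.282).

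The chemokines formed the next group of rises. Cxcl14, a chemokine made by stromal and epithelial cells, read 10.11, 10.41, 10.18 and 10.21 in the knockout IL-4 arrays and 9.21, 9.11, 9.26 and 9.04 in the wild-type vehicle arrays. No array of one group reached the other, and the difference was 1.07 (0.94 to 1.21, 2.11-fold, adjusted p = 3.21e-07), with its second probe at 0.79. The neutrophil attractant Cxcl1 was bright in both groups, at 12.72, 12.65, 12.62 and 12.41 against 11.86, 11.74, 12.02 and 12.03. It rose by 0.69 (0.51 to 0.87, adjusted p = 0.000424). The related Cxcl5 rose by 0.79 (adjusted p = 0.00126), with knockout values of 9.70 to 9.98 and wild-type values of 9.02 to 9.10. Ccl9, a monocyte-attracting chemokine, read 11.99, 11.71, 11.89 and 11.77 against 10.93, 10.97, 11.04 and 10.93, a rise of 0.87 (0.61 to 1.13, adjusted p = 0.00104). In knockout cells given vehicle, Ccl9 spread from 11.18 to 11.91 and its difference from the wild type was 0.55.

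Of 34 measured inflammatory cytokines and chemokines, 6 rose and 0 fell, with a list median of 0.02. Ccl9 was not in this list. Beside Cxcl14, Cxcl5 and Cxcl1, the rises were the monocyte chemokines Ccl2 (0.55, adjusted p = 0.018) and Ccl8 (0.45, adjusted p = 0.00806) and the alarmin Il33 (0.14, adjusted p = 0.0204). The classical cytokines Il6, Il1b and Tnf lay near the array minimum in both groups, and 22 of the 34 genes lay within 0.5 of it. Among 17 measured regulators and targets of NF-kappaB, the transcription factor of inflammatory signalling, 4 rose and 0 fell: the mitochondrial superoxide dismutase Sod2 by 0.43 (adjusted p = 0.00857), the signalling inhibitor Irak3 by 0.38 (adjusted p = 0.0174), the adhesion molecule Vcam1 by 0.35 and the co-regulator Nfkbiz by 0.26. The list median was 0.03. Irak3 no longer passed without knockout IL-4 replicate 1 or without wild-type replicate 1. In the interferon-stimulated and antigen presentation list, 0 of 36 measured genes passed in limma, and in the immediate early and heat shock list 0 of 18.

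Acute phase and innate defence genes were also among the rises. Lipopolysaccharide-binding protein (Lbp), which presents endotoxin to CD14, read 10.19, 9.86, 10.004 and 9.98 in the knockout IL-4 arrays and 8.81, 8.60, 8.93 and 8.63 in the wild-type vehicle arrays. The gap between the groups exceeded the range within either, and the rise was 1.27 (1.10 to 1.43, 2.4-fold, adjusted p = 4.03e-07). The protease inhibitor Serpina3n read 11.71, 11.76, 11.63 and 11.83 against 11.14, 11.10, 11.05 and 10.91, a rise of 0.68 (0.55 to 0.81, adjusted p = 2e-05). Serum amyloid A3 (Saa3), an acute phase protein, rose by 0.60 (adjusted p = 0.0013), to 12.90 to 13.22 from 12.31 to 12.57. Of 29 measured genes in the list 8 rose and 2 fell, and 8 of the 14 bright ones rose. The further rises were the pentraxin Ptx3 (0.47), the iron-scavenging lipocalin Lcn2 (0.44), the complement inhibitor Serping1 (0.44), the complement protease C1s1 (0.41) and lysozyme Lyz1 (0.26). The falls were the orosomucoids Orm1 (-0.29, adjusted p = 0.00969) and Orm2 (-0.06, adjusted p = 0.0425), the second near the array minimum and lost without 7 of the arrays taken singly. Orosomucoids are near-identical copies, so their probes may not separate them.

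**Figure D2:**
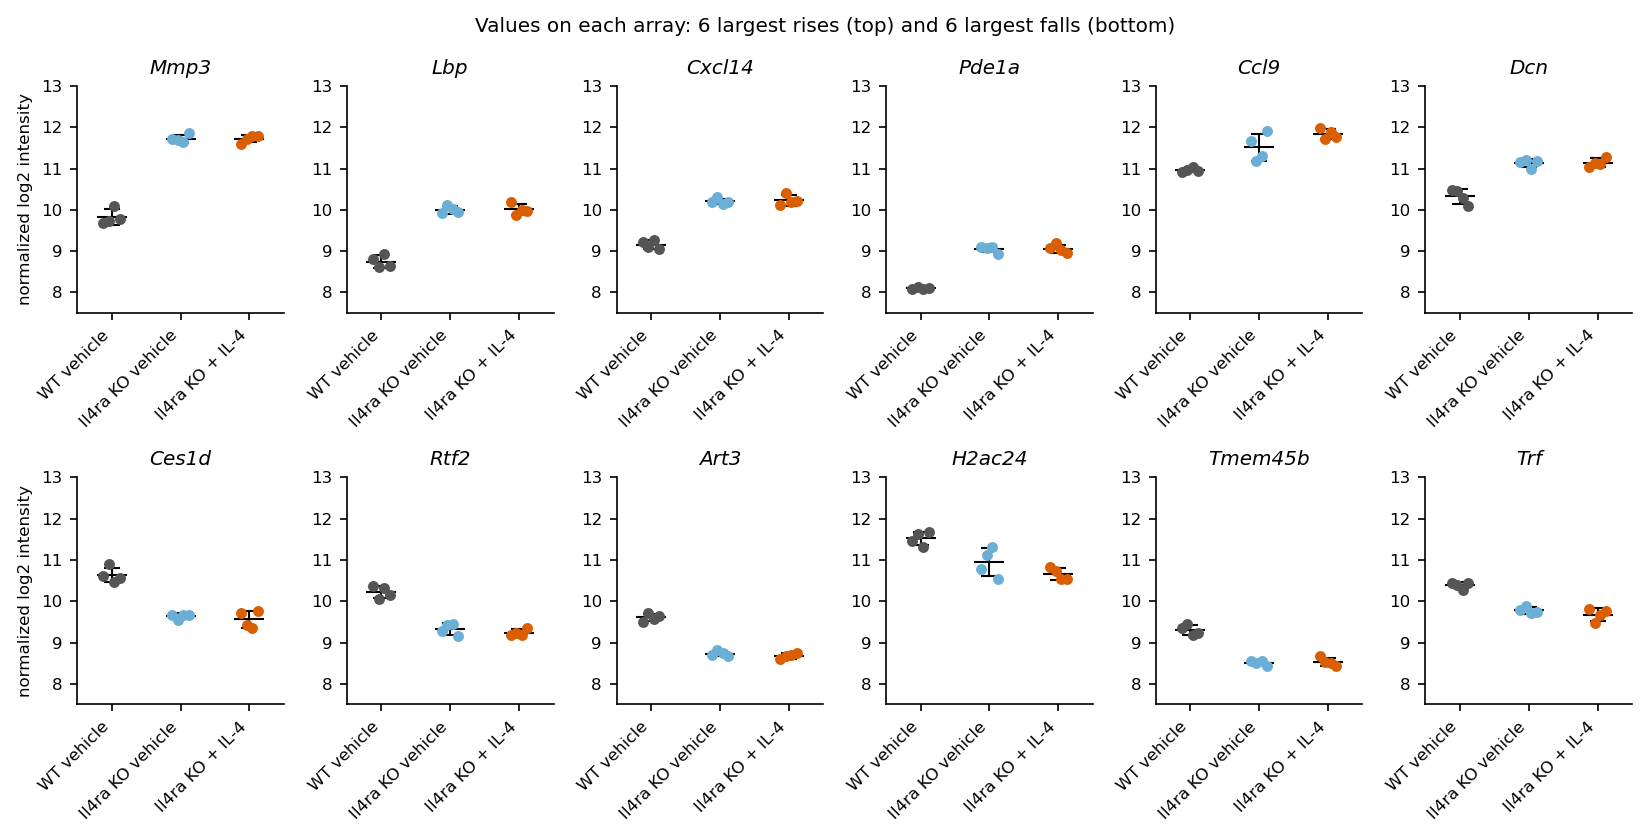
Log2 values of the 6 largest rises (top) and the 6 largest falls (bottom) are shown for each array of the knockout IL-4, knockout vehicle and wild-type vehicle groups, with points for arrays and bars for the mean ± SD. For Mmp3 the knockout IL-4 arrays lie at 11.60 to 11.79 and the wild-type vehicle arrays at 9.68 to 10.09, with no overlap.

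The promoters of the leading secreted-protein genes and of the largest falls were read from RefSeq (build GRCm38.p6), as the 250 bases before the annotated start. Of 19 genes looked up, 13 were found, with 17 promoters. They were searched on both strands for the AP-1 motif TGANTCA, for the NF-kappaB motif and for the TATA box TATAAA. The 3 shown are those with an AP-1 or NF-kappaB match, all from genes that rose. Capitals mark the match.
Mmp3, chr9:7445572-7445821, plus strand: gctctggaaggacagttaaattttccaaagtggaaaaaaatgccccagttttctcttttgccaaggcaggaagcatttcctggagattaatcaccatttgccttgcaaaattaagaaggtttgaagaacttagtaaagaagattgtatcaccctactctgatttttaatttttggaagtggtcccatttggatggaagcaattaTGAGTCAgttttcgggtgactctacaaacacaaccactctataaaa
Mmp13, chr9:7272264-7272513, plus strand: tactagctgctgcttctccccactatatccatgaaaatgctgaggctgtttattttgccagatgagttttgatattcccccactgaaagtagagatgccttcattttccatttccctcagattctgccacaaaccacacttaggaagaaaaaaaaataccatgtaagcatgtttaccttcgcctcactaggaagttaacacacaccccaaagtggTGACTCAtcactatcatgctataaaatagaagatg
Cxcl1, chr5:90890995-90891244, plus strand: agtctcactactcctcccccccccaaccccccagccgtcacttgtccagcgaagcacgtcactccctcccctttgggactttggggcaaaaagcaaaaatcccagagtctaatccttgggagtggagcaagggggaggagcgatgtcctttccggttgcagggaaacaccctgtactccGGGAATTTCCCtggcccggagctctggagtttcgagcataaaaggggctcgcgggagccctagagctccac
The AP-1 match begins at -46 from the start of Mmp3 and at -35 from that of Mmp13, and 2 overlapping NF-kappaB matches on opposite strands begin at -71 and -70 from that of Cxcl1. An AP-1 match occurs in 6.75% of the 32851 promoters of this length that were searched, an NF-kappaB match in 3.9% and a TATA match in 12.4%. Promoters of 1 chromosome were left out, both here and in the look-up of genes. Among the 13 genes, 2 had an AP-1 match, 1 an NF-kappaB match and 3 a TATA match. A match describes the sequence and shows neither binding nor a cause of the rise.

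Markers of FAP identity were higher where they differed. The PDGF receptor alpha (Pdgfra), a receptor used to sort FAPs from muscle, read 11.12, 10.76, 10.94 and 10.65 in the knockout IL-4 arrays and 10.09, 10.22, 10.28 and 10.08 in the wild-type vehicle arrays. The groups were separate, and the rise was 0.70 (0.46 to 0.93, adjusted p = 0.00248). In knockout cells given vehicle the gene read 10.31 to 10.69, with a difference of 0.31 from the wild type that did not pass (adjusted p = 0.199). Decorin, a proteoglycan that binds collagen and TGF-beta, rose by 0.82 on one probe (11.04, 11.14, 11.10 and 11.28 against 10.47, 10.46, 10.28 and 10.08, adjusted p = 0.000423). On its brightest probe the rise was 0.43 (adjusted p = 0.00756), and there wild-type replicate 3, at 11.94, stood above the other wild-type arrays. Of the 22 identity genes measured 6 rose and 0 fell, with a median of 0.04: beside Pdgfra and Dcn they were dermatopontin (Dpt, 0.29), Pdgfrb (0.27), the quiescence factor Hic1 (0.24) and the peptidase inhibitor Pi16 (0.16). In knockout cells given vehicle, against the same wild-type arrays, 2 of the 22 passed, Dcn and Hic1, and 0 were lower. Of 14 small leucine-rich proteoglycans, 2 rose and 0 fell, Dcn and Prelp (0.51, adjusted p = 0.0153). Prelp was lost without knockout IL-4 replicate 3 or wild-type replicate 2.

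In these bulk cultures, more cells of a type and more RNA per cell cannot be told apart, so markers of other cells were read beside the identity genes. The leukocyte markers Ptprc and Itgam averaged 7.81 and 7.80 in the knockout IL-4 arrays and 7.81 and 7.79 in the wild-type vehicle arrays, and 23 of 26 measured leukocyte markers lay within 0.5 of the array minimum. The exception among them that passed was the calprotectin subunit S100a8, higher by 0.53 (adjusted p = 0.00334), at 9.62 to 9.83 against 9.09 to 9.28. Its partner S100a9 averaged 7.80 against 7.81. Lyz2 (9.71 to 9.93 against 9.51 to 9.70) and Cd14 (8.22 to 8.39 against 8.09 to 8.14) were also higher, without passing. Other members went the other way without passing. Differences in the leukocyte list ran from -0.41 to 0.53, with a median of 0.00 and 0 called lower. The mean level of the list was 8.084 to 8.104 in knockout cells given IL-4 and 8.066 to 8.076 in the wild-type vehicle group. These ranges do not overlap, but no share over all genes was computed for such means. In knockout cells given vehicle 3 of the 26 were called higher. Of 18 endothelial markers 0 passed, with Pecam1 at 7.82 and 7.80, and of 9 tenocyte and Schwann cell markers 0 passed. Myogenic markers gave 0 rises and 2 falls of 25, Itga7 (-0.12, adjusted p = 0.00418) and Tnnc1 (-0.10, adjusted p = 0.00761). Both were dim, and Pax7, at 7.80 and 7.81, and Myod1, at 7.79 and 7.80, lay near the array minimum. Of 13 pericyte and smooth muscle markers 0 rose and 2 fell. These were the adhesion molecule Mcam, by -0.41 (adjusted p = 0.000367, 1 of 3 probes), and smooth muscle actin Acta2, also a marker of myofibroblasts, by -0.32 (adjusted p = 0.015, 1 of 4 probes). The part of these differences in the other results was not tested. Adipocyte genes, bright in these cultures, are described below, and the share of adipocytes was not measured.

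Other secreted and signalling proteins were among the largest rises. Pde1a, a calmodulin-dependent phosphodiesterase that breaks down cyclic nucleotides, read 9.07, 9.19, 9.02 and 8.95 in the knockout IL-4 arrays and 8.07, 8.12, 8.09 and 8.10 in the wild-type vehicle arrays. Its rise of 0.96 (0.87 to 1.06, adjusted p = 2.17e-08) held on all 3 probes, with tight values in each group. Sfrp1, a secreted inhibitor of Wnt signalling, rose by 0.81 (0.49 to 1.12, adjusted p = 0.00637), at 9.99 to 10.34 against 9.15 to 9.55. In knockout cells given vehicle Sfrp1 ranged from 9.46 to 10.22 and did not pass (0.54, adjusted p = 0.0732). Of 23 secreted factors known to act on myogenic cells 4 rose and 1 fell: the follistatin-related protein Fstl1 (0.42, adjusted p = 0.00183), the fibroblast growth factors Fgf7 (0.42, adjusted p = 0.0243) and Fgf10 (0.41, adjusted p = 0.00201) and hepatocyte growth factor Hgf (0.12, adjusted p = 0.0333), against Tgfb3 (-0.18, adjusted p = 0.00391). Of 13 insulin-like growth factor genes 0 rose and 2 fell, the binding protein Igfbp6 (-0.40, limma adjusted p = 0.00282) and the protease Htra1 (-0.34, adjusted p = 0.00511, 1 of 2 probes).

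Structural matrix genes went both ways. Of 33 fibrillar collagens and matrix proteins 3 rose and 4 fell, with a median of 0.06. Among the 21 bright ones 4.76% rose and 19% fell, against 5.64% and 8.14% of all bright genes. The rises were thus no more frequent than among bright genes at large. Fibulin-1 (Fbln1), an elastic fibre and basement membrane protein, rose by 0.62 (adjusted p = 0.00349, 2 of 3 probes), while the collagen VI chain Col6a2 fell by 0.48 (adjusted p = 0.000704). The further rises were the crosslinking enzyme Loxl2 (0.24, adjusted p = 0.0381) and the collagen hydroxylase subunit P4ha1 (0.11, adjusted p = 0.0446, groups overlapping), and the further falls the lysyl hydroxylase Plod2 (-0.36), tenascin-C (Tnc, -0.31) and Pcolce2 (-0.17), which lost its call under 2 other settings (adjusted p of up to 0.0537). The collagen I chain Col1a1 read 11.16, 11.84, 11.27 and 11.50 against 11.33, 11.19, 11.05 and 11.10. The groups overlapped, and its difference of 0.27 did not pass (adjusted p = 0.274). Of 17 basement membrane genes nidogen-2 (Nid2) rose, by 0.39 (adjusted p = 0.00476), and 2 fell, Col15a1 by -0.51 (adjusted p = 0.000217) and perlecan (Hspg2) by -0.21 (adjusted p = 0.038). Hspg2 lost its call under 8 of the 17 other settings tried.

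On the falling side, the largest change was in Ces1d, a carboxylesterase that hydrolyses triglyceride at the lipid droplet of mouse adipocytes. Its level was 9.72, 9.41, 9.36 and 9.75 in the knockout IL-4 arrays and 10.61, 10.89, 10.48 and 10.57 in the wild-type vehicle arrays. All knockout values lay below all wild-type values, by -1.08 (-1.33 to -0.82, 2.11-fold lower, adjusted p = 0.000152). Of 20 lipid droplet and lipolysis genes 5 fell and 1 rose, with a median of -0.09, and 5 of the 13 bright ones fell. Adipose triglyceride lipase (Pnpla2), the first enzyme of lipolysis, was among the brightest genes, at 13.78 to 13.86 against 14.07 to 14.20, and fell by 0.31 (adjusted p = 1.27e-05). The droplet coat protein Plin4 fell by 0.49 (adjusted p = 0.00751), the lipase inhibitor G0s2 by 0.47 (adjusted p = 0.00544) and hormone-sensitive lipase (Lipe) by 0.39 (adjusted p = 0.0007). The falls therefore included both lipases and an inhibitor of one. The rise was Ces1f, a carboxylesterase of the same family (0.22, adjusted p = 0.0322), which was lost when any of 6 arrays was left out.

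Synthesis and oxidation of fatty acids gave falls as well. Of 23 genes of fatty acid and triglyceride synthesis 0 rose and 4 fell, with a median of -0.01. Agpat2, an acyltransferase needed for triglyceride synthesis, fell by 0.53 (adjusted p = 0.00498), from 11.91, 11.94, 11.53 and 11.65 in the wild-type arrays to 11.42, 11.08, 11.22 and 11.21 in the knockout IL-4 arrays. The groups did not overlap, though knockout replicate 1 came close to wild-type replicate 3. The others were acetyl-CoA synthetase Acss2 (-0.34, 1 of 2 probes), the phosphatidate phosphatase Lpin1 (-0.30) and the glucose-responsive transcription factor Mlxipl (-0.28). Of 22 genes of mitochondrial fatty acid oxidation 0 rose and 4 fell, with a median of -0.08. The thiolase Acaa2, which catalyses the last step of each round, read 10.82, 10.64, 10.60 and 10.81 against 11.18, 11.34, 11.29 and 11.31. Knockout and wild-type arrays were separate, and the fall was -0.57 (-0.70 to -0.43, adjusted p = 0.000183), on 3 of 4 probes. The electron transfer flavoproteins Etfb (-0.48, 1 of 2 probes) and Etfa (-0.31) and medium-chain acyl-CoA dehydrogenase Acadm (-0.45) were the other 3. Etfa lost its call with the replicate number as a block (limma adjusted p = 0.0513). The peroxisomal thiolase Acaa1b fell by 0.65 (adjusted p = 1.37e-05).

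Of 73 respiratory chain and ATP synthase genes 8 fell and 2 rose, with a median of 0.01. Among the 57 bright ones 14% were lower and 3.51% higher, against 8.14% and 5.64% of all bright genes. Differences ran from -0.55 to 0.57, and the gene at 0.57 did not pass. Cox8b, a cytochrome c oxidase subunit typical of brown fat, heart and muscle, read 10.24, 10.20, 10.05 and 10.29 against 10.74, 10.75, 10.62 and 10.87. The groups were apart, and it fell by 0.55 (adjusted p = 0.00308). The tissue-specific oxidase subunit Cox7a1 fell by 0.35 (adjusted p = 0.00438), the complex III core protein Uqcrc2 by 0.39 (adjusted p = 0.00256) and the complex I subunit Ndufa10 by 0.38 (adjusted p = 0.0143). The further falls, Ndufa9, Cox6a1, Cox6b1 and Uqcr10, lay between -0.28 and -0.11. Under other settings Uqcr10 and Cox6b1 lost their calls, with adjusted p of up to 0.497 and 0.104. The ATP synthase subunit Atp5h rose by 0.39 (adjusted p = 0.000958), and the complex I subunit Ndufc2 by 0.17 (adjusted p = 0.036), a call lost under 11 of 17 other settings. Of 17 tricarboxylic acid cycle genes 0 rose and 1 fell, Ogdh (-0.28, limma adjusted p = 0.0237). Among the 13 bright ones this was 7.69%, near the 8.14% of all bright genes.

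The adipocyte differentiation genes gave 2 calls, both falls. Of 20 measured adipocyte transcription factors and adipokines 0 rose and 2 fell, 10% lower against 2.46% of all genes, with a median of -0.02. The falls were the adipogenic factor Ebf2 (-0.20, limma adjusted p = 0.0257, 1 of 2 probes, the other at 0.04) and the insulin-responsive glucose transporter Slc2a4 (-0.16, adjusted p = 0.0203). Leaving out wild-type replicate 2 ended both calls. Pparg, the master regulator of adipogenesis, read 11.53, 11.47, 11.37 and 11.58 against 11.67, 11.61, 11.48 and 11.65. The groups overlapped and the difference of -0.11 did not pass (adjusted p = 0.316). Adiponectin (Adipoq) averaged 12.82 against 12.68 (0.14, adjusted p = 0.505), and lipoprotein lipase (Lpl) 14.63 against 14.62. Both were bright in these cultures. Of 17 cholesterol genes 0 rose and 1 fell, the synthase Hmgcs1 (-0.29, limma adjusted p = 0.00167). Among the 11 bright ones this was 9.09%, near the 8.14% of all bright genes.

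**Figure D3:**
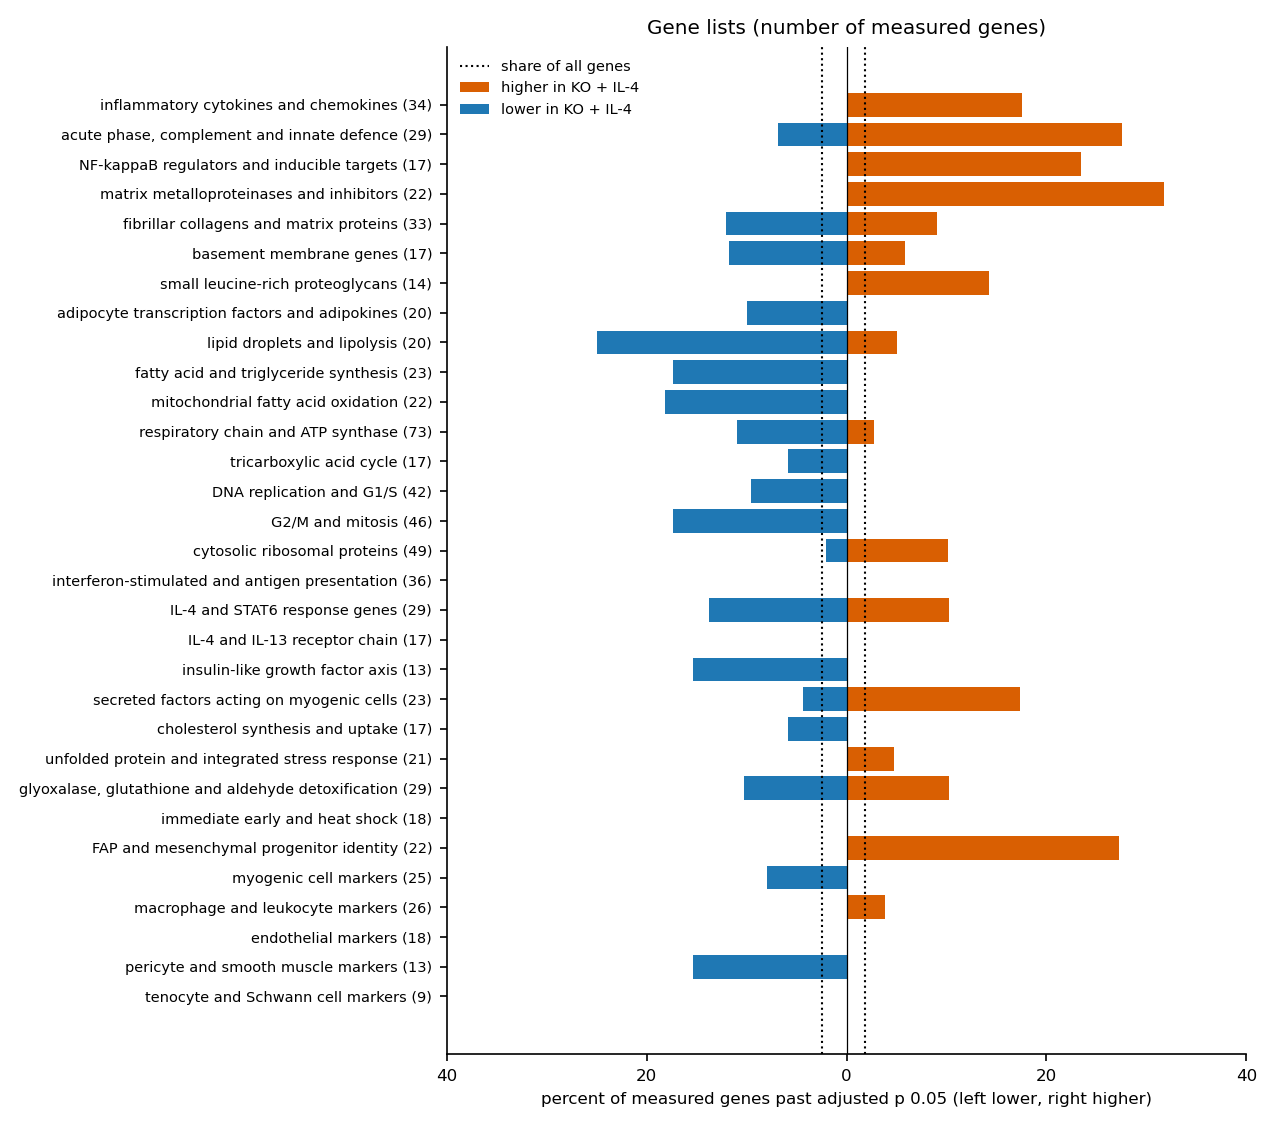
For each of the 31 gene lists, bars to the right give the percent of measured genes higher in the knockout IL-4 arrays and bars to the left the percent lower, with dotted lines at the share of all genes (1.8% and 2.46%). Metalloproteinases have 7 of 22 genes higher and 0 lower, and the G2/M list 0 of 46 higher and 8 lower.

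Several large falls lay outside lipid metabolism. Rtf2, a factor of replication termination, read 9.18, 9.22, 9.18 and 9.36 in the knockout IL-4 arrays and 10.36, 10.05, 10.33 and 10.16 in the wild-type vehicle arrays. Every knockout array was below every wild-type array, the fall was -0.99 (-1.17 to -0.81, adjusted p = 1.23e-05), and all 3 probes of the gene passed. The ADP-ribosyltransferase family member Art3 fell by 0.93 (adjusted p = 4.03e-07, 2 of 3 probes), from 9.50 to 9.71 down to 8.59 to 8.74. Tmem45b fell by 0.77 (adjusted p = 1.16e-05). The iron carrier transferrin (Trf) fell by 0.72 (adjusted p = 7.37e-05), to 9.46 to 9.81 from 10.28 to 10.45. The teneurin Tenm4 fell by 0.57 (adjusted p = 0.0139), with the wild-type arrays spread from 9.34 to 10.02, and it lost its call with the replicate number as a block (adjusted p = 0.0519). The histone H2ac24 read 10.54 to 10.82 against 11.33 to 11.68, a fall of -0.86 (adjusted p = 0.00268). H2A histones are near-identical copies, so its probe may not tell it from its relatives.

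Cell cycle genes fell where they passed, by small amounts at low levels. Of 46 G2/M and mitosis genes 0 rose and 8 fell, with a median of -0.02, and 32 of the 46 lay within 0.5 of the array minimum. The actin-binding cytokinesis protein Anln read 8.95, 8.99, 8.89 and 8.83 against 9.27, 9.28, 9.34 and 9.24. The groups were separate at a difference of -0.36 (-0.48 to -0.25, adjusted p = 0.00193, 1 of 3 probes). Survivin (Birc5) fell by the same -0.36 (adjusted p = 0.00154, 2 of 3 probes), as did the centromeric histone Cenpa (-0.36, adjusted p = 0.00126). The spindle protein Prc1 (-0.35), the mitotic kinases Plk1 (-0.27), Cdk1 (-0.20) and Aurka (-0.15) and the motor Kif22 (-0.27) made up the rest. Of 42 replication and G1/S genes 0 rose and 4 fell, with a median of -0.05: the clamp loader subunit Rfc1 (-0.25), the helicase subunits Mcm5 (-0.23) and Mcm2 (-0.13) and the flap endonuclease Fen1 (-0.16). Cdkn2c, an inhibitor of the G1 kinases, fell too, by 0.55 (adjusted p = 0.000619, 1 of 2 probes).

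Ribosomal protein genes had the highest list median after the metalloproteinases, 0.12 over 49 measured genes, but 5 rose and 1 fell. The rises were Rpl34 (0.40), Rps27 (0.36), Rpl10 (0.35), Rpl12 (0.32) and Rpl13a (0.30), and the fall was Rps2 (-0.19). Rps2 was lost under the trended variance model (adjusted p = 0.121). These genes have many near-identical pseudogenes, and the share of probe signal due to each is uncertain. The count of rises ran from 3 without knockout IL-4 replicate 3 to 15 when dim probes were left out. Of 29 glyoxalase, glutathione and aldehyde genes 3 rose and 3 fell. Among the 20 bright ones 15% rose and 10% fell, against 5.64% and 8.14% of all bright genes. Glyoxalase 1 (Glo1), which detoxifies methylglyoxal, rose by 0.66 (adjusted p = 0.000116), at 11.75, 12.04, 12.06 and 11.89 against 11.13, 11.30, 11.24 and 11.41. All 4 knockout values exceeded all wild-type values. The superoxide dismutase Sod1 (0.33, adjusted p = 0.0487) and the glutathione transferase Gstt1 (0.29) also rose, while alcohol dehydrogenase Adh1 (-0.57, 1 of 2 probes), Gsta4 (-0.51) and the quinone reductase Nqo1 (-0.14) fell. With the replicate number as a block Nqo1 lost its call (adjusted p = 0.0675). Of 21 stress response genes 1 rose and 0 fell, asparagine synthetase (Asns, 0.31, adjusted p = 0.00167, 1 of 3 probes).

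**Figure D4:**
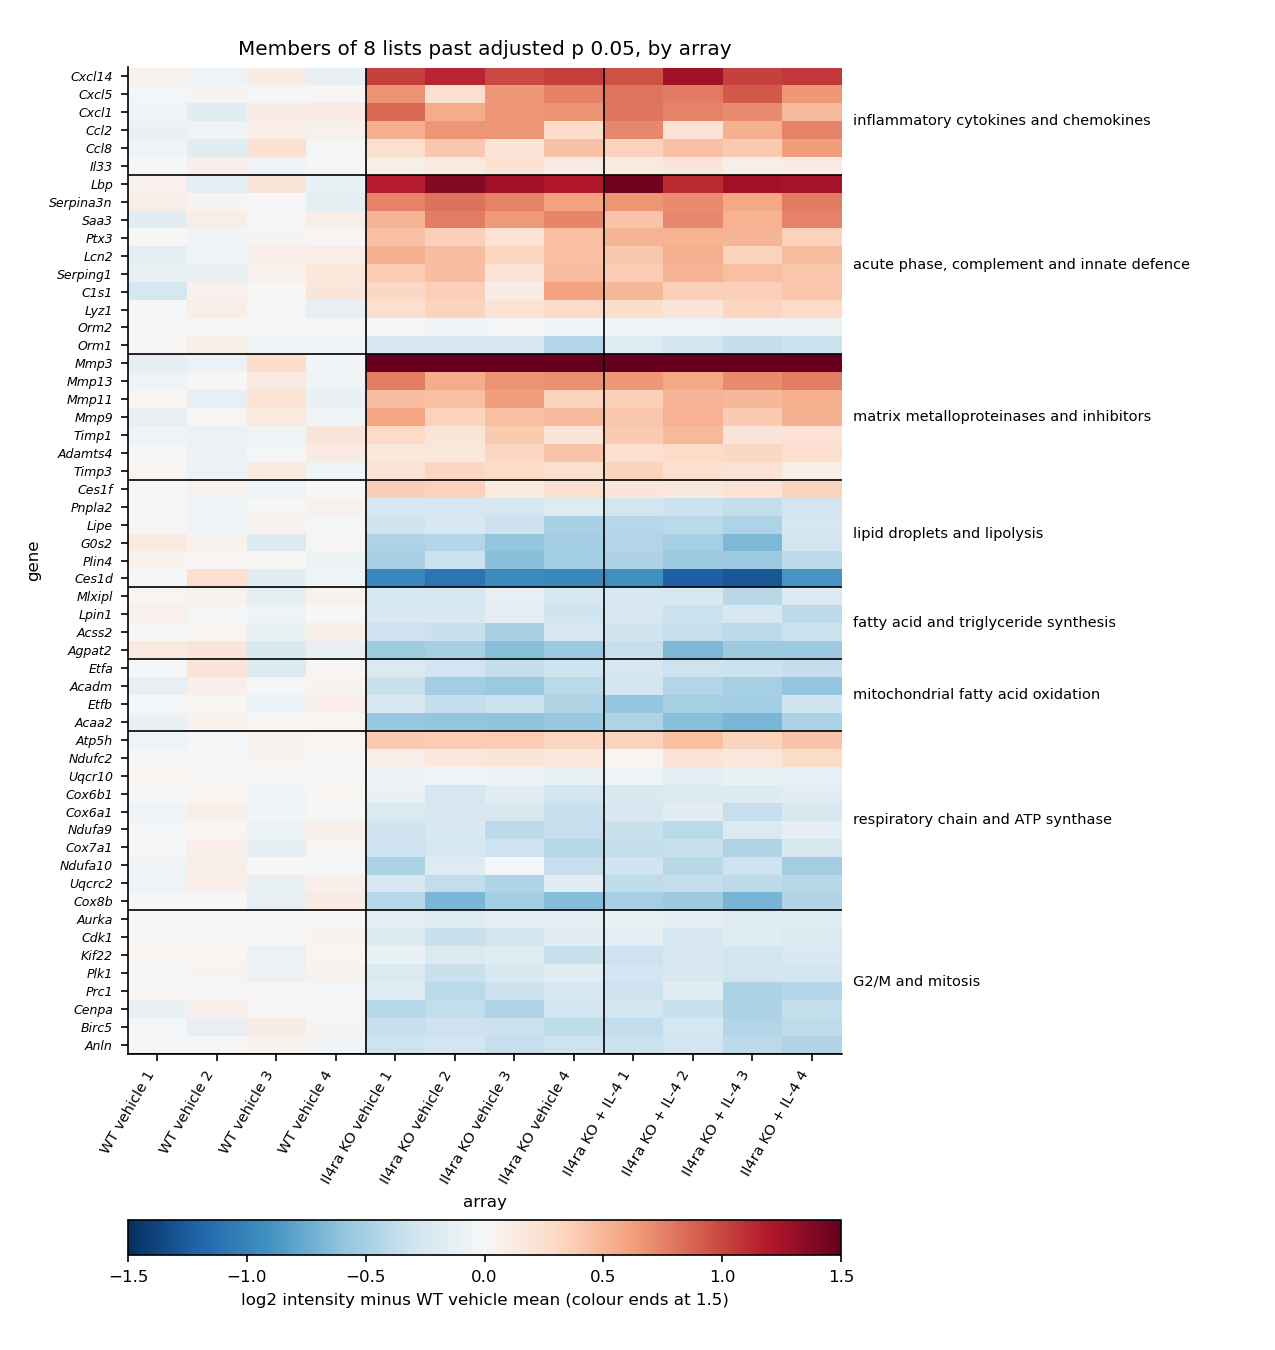
A heat map shows the genes of 8 lists that passed as rows and the arrays as columns, each value as a difference from the wild-type vehicle mean on the log2 scale, with the colour scale ending at 1.5 in either direction. The knockout IL-4 arrays show Mmp3 at 1.90 and Ces1d at -1.08 on average.

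The IL-4 and STAT6 response list, which was partly drawn from genes known to respond in wild-type cells of this same series and so is no independent evidence, had 3 rises and 4 falls among 29 measured genes. The rises were the angiopoietin-like gene Angptl7 (0.64, adjusted p = 1.93e-05), the ferritin receptor Scara5 (0.28, adjusted p = 0.0197) and Socs3 (0.27, adjusted p = 0.0463, groups overlapping), an inhibitor of JAK and STAT3 signalling. The falls were Cish, Pcolce2, Mcm5 and Cenpa, given above. In the IL-4 and IL-13 receptor chain 0 of 17 measured genes passed in limma. Stat6 averaged 0.05 higher (adjusted p = 0.759) and Il13ra1 0.06 higher (adjusted p = 0.488). Of the 10 measured genes on each side of Il4ra in RefSeq gene order, 1 of 20 passed, the zinc finger gene Zkscan2, which was 0.07 higher near the array minimum (adjusted p = 0.0253), and 0 were lower.

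Finally, the knockout IL-4 and knockout vehicle arrays were set side by side, each as a difference from the same 4 wild-type vehicle arrays. The vehicle arrays gave 690 probes past the threshold, 2.69% of all, with 304 higher (1.18%) and 386 lower (1.5%). With IL-4 and with vehicle respectively, Lbp differed by 1.27 and 1.25, Cxcl14 by 1.07 and 1.05, Pde1a by 0.96 and 0.96, Cxcl1 by 0.69 and 0.68, Serpina3n by 0.68 and 0.73, and Glo1 by 0.66 and 0.72. By list, knockout cells with IL-4 and with vehicle gave, respectively, 6 and 5 rises of 34 inflammatory genes and 8 and 9 of 29 acute phase genes. Rises were 7 and 6 of 22 metalloproteinase genes and 6 and 2 of 22 identity genes. They were 5 and 9 of 49 ribosomal protein genes and 1 and 3 of 26 leukocyte markers. Falls were 5 and 5 of 20 lipolysis genes and 8 and 9 of 46 G2/M genes. Of all genes, 1.8% were higher and 2.46% lower with IL-4. For vehicle the share was computed over probes only, as given above. On the falling side Ces1d differed by -1.08 and -0.998, Acaa2 by -0.57 and -0.58, Cox8b by -0.55 and -0.57, and Agpat2 by -0.53 and -0.56. Since these pairs share the wild-type arrays, their likeness is in part built in. The direct knockout difference is the measure that is free of those arrays, and for Mmp3 it was 0.00 (-0.17 to 0.17).

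For 14 of the 83 named probes the unadjusted 95% interval of the knockout IL-4 minus knockout vehicle difference lay off 0. The genes had been named on the knockout IL-4 arrays, which favours such differences, and none passed after adjustment (adjusted p of 0.754 or more). Above 0 were Pdgfra (0.39, 0.16 to 0.63), Ccl9 (0.32, 0.07 to 0.58), Fgf7 (0.27, 0.07 to 0.47), Asns (0.10, 0.01 to 0.20) and Zkscan2 (0.04). Below 0 were Tenm4 (-0.31, -0.56 to -0.05), Cdkn2c (-0.20, -0.35 to -0.04), Ebf2 (-0.19, -0.29 to -0.09), Col15a1 (-0.15), Tgfb3 (-0.14), Etfb (-0.13), Pparg (-0.12), Hmgcs1 (-0.11) and Orm2 (-0.04). For Ebf2 the vehicle contrast was -0.02, and for Tgfb3 -0.04, against -0.20 and -0.18 with the IL-4 arrays.

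Among 126 probes past the threshold that belong to the named genes and list members, 35 lost their call when at least 1 array was left out, and 0 reversed. Each of the 8 arrays ended between 16 calls (knockout IL-4 replicate 1) and 24 calls (wild-type replicate 1). From the inflammatory, acute phase and NF-kappaB lists these were Il33, Ccl2, C1s1, Orm2, Irak3 and Vcam1. From the metalloproteinase and matrix lists they were Timp1, Timp3, Tnc, P4ha1, Loxl2, Hspg2 and Prelp. Fgf7, Hgf, Dpt, Pdgfrb and Pi16 came from the secreted factor and identity lists. The metabolic genes were Slc2a4, Ebf2, Ces1f, Ndufa10, Ndufc2, Ogdh, Sod1 and Gstt1, and the others Mcm2, Fen1, Aurka, Acta2, Rps27, Rpl13a, Socs3, Scara5 and Zkscan2. The largest rises and falls named for size are not among them. They were chosen on these same arrays among called probes with separate groups, which favours this result.

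**Figure D5:**
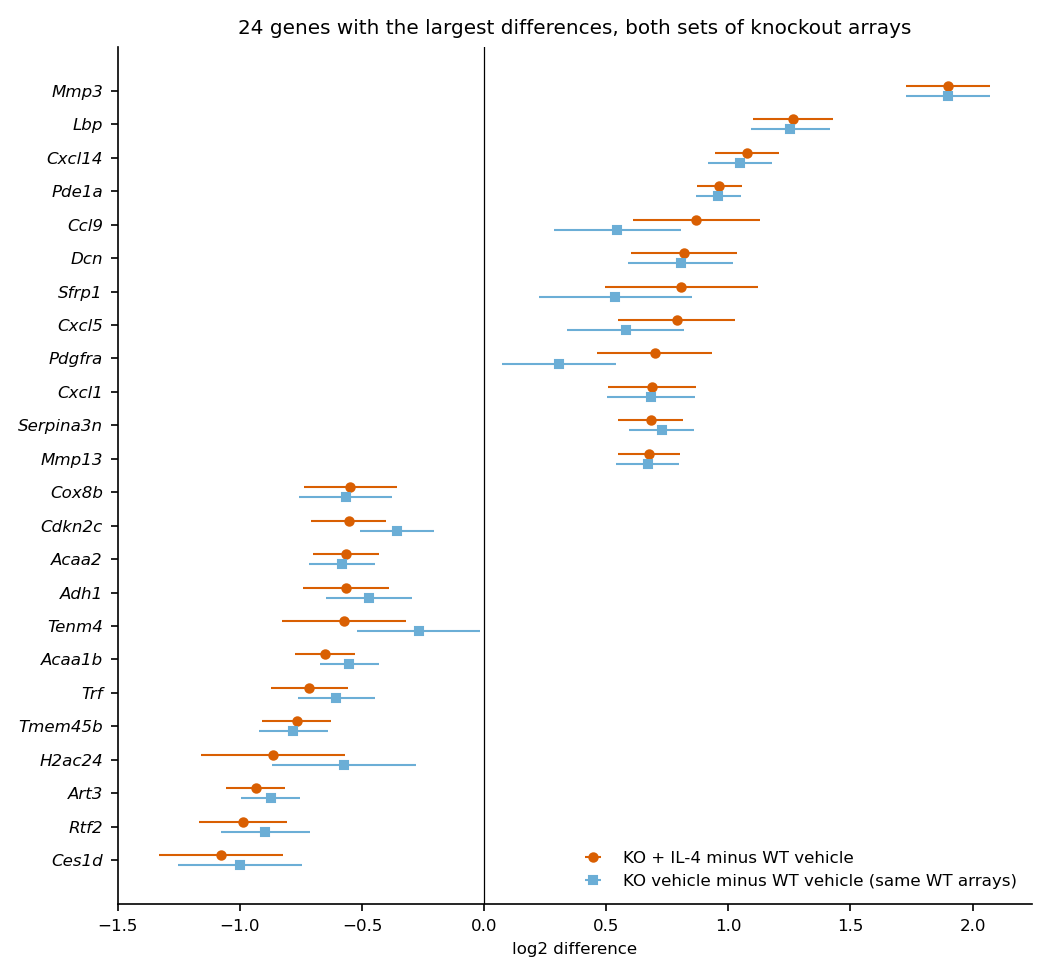
For the genes named for the largest rises and falls, points give the difference from the 4 wild-type vehicle arrays (log2 scale) for knockout cells with IL-4 and with vehicle, and bars give 95% confidence intervals. Mmp3 lies at 1.90 in both, whereas Pdgfra lies at 0.70 with IL-4 and 0.31 with vehicle.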

How the data were processed

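RNA of cultured FAPs was purified on RNeasy columns, labelled with Cy3 and hybridised to 16 Illumina MouseRef-8 v2.0 arrays, per the labels' protocols, and groups came from the titles. The deposited values, 1 per probe and array, were read as log2 from their range. The authors had normalized them: between arrays, sorted values differ by no more than 0.00059, as quantile normalization gives. Equal distributions hide changes in total RNA. The sources used here do not name software, background correction, log base or chips. P-values measure the spread between these arrays, which may be partly technical, and the number of arrays limits precision.

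A limma model (R 4.3.3, limma 3.58.1) with 1 mean for each of the 4 groups was fitted to the 16 arrays, leaving 12 residual degrees of freedom, without filter or further normalization. Two-sided p-values were adjusted by Benjamini-Hochberg over 25697 probes at a threshold of 0.05, and intervals are 95% and unadjusted. The code was tested on simulated data. Through the platform annotation 23978 probes had 1 symbol and 1719 had none here. In 31 lists, 794 of 879 entries were measured, the brightest probe standing for a gene. Lists, members and rules were chosen with earlier results of these data known. Named were the 12 largest rises and 12 largest falls among called probes with a single symbol and separate groups (the probe with the largest difference per gene), the 2 members of each list that rose and the 2 that fell most, a fixed set of 25 genes (22 measured) and called neighbours of Il4ra. Further list members were named after their values were seen. Promoters came from RefSeq. Alternatives were other normalization, filters, variance model, weights, thresholds, arrays fitted, replicate block and each array left out. Figures used matplotlib 3.10.9.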

Additional observations from a re-analysis of the deposited data

Results flagged for a closer look

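Among the named genes, 249 groups of 4 arrays were examined for an array far from the other 3 (Dixon's test), and 13 (5.22%) had one. Chance alone flags about 1 in 20 groups.

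In the knockout IL-4 group replicate 3 stood low for the superoxide dismutase Sod1, at 11.74 against 11.84 to 11.85 in the others, and for the thiolase Acaa1b, at 8.78 against 8.92 to 8.94. In the wild-type vehicle group replicate 3 stood high for Dcn, at 11.94, and low for Tnnc1, at 8.05. Replicate 2 stood high for Rps27, at 12.46, and replicate 1 low for Ccl11, at 10.58 against 11.01 to 11.05. The other 7 were knockout vehicle arrays. Replicate 4 stood low for Pde1a, at 8.93, and for Orm1, at 8.72, and high for Scara5, at 10.005. Replicate 1 stood high for Irak3, at 9.58, and for Rps2, at 13.60. Replicate 3 stood low for Prelp, at 11.59, and replicate 2 low for Ces1d, at 9.55.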

How the results depend on the processing

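The 901 probes (399 higher, 502 lower) became 387 (170 and 217) at an adjusted p of 0.01 and 29 (21 and 8) at 1.5-fold. They numbered 583 to 785 with an array left out (266 to 350 higher, 317 to 435 lower), lowest without knockout IL-4 replicate 3, and 1000 without the wild-type IL-4 arrays, a setting chosen after seeing the data. Quantile normalization again and median centring left the count at 901, and the filters, variance model, array weights and 8-array fit gave 1009 to 1281. The vehicle contrast fell from 690 (304 and 386) to 245 (110 and 135) at an adjusted p of 0.01 and 22 (16 and 6) at 1.5-fold, and to 426 to 591 with an array left out (187 to 278 higher, 239 to 324 lower), with 447, 426 and 456 without wild-type replicates 1, 2 and 4. The knockout difference of 0 probes became 1, higher, under the trended, robust model and was 0 in every other setting, arrays left out included. With the replicate number as a block the counts were 1350 (598 and 752), 0 and, for the vehicle contrast, 354 (167 and 187). Deviations of same-numbered knockout IL-4 and wild-type vehicle arrays correlated at 0.00, -0.02, 0.08 and 0.16, and those of the knockout groups at 0.14, 0.05, -0.05 and -0.22, so the values gave no sign of pairing by number. Whether a number marks the same animal is not stated. Of 126 named probes past the threshold, 83 passed under every setting that tested them (up to 17), 43 were lost under at least 1 and 0 reversed. Ccl11 and Pparg gained a call under a setting each. List counts ran from 4 to 9 for chemokine rises, 7 to 11 for acute phase rises, 5 to 9 for metalloproteinase rises, 5 to 7 for lipolysis falls and 7 to 12 for G2/M falls. Signal near the array minimum limits dim genes. The causes of these shifts were not tested.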
